A study of Mus musculus with 8 samples.

Results

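All Id2-GFP+ dendritic cell progenitors were compared with all Id2-GFP- progenitors of mouse bone marrow, over the 8 arrays of the study, to describe the transcripts that went with an active Id2 reporter at both stages examined. Of 19938 genes measured, 1081 had all 4 Id2-GFP+ arrays above all 4 Id2-GFP- arrays and 903 had all 4 below. These genes, whose classes did not overlap, are described here. The 4 populations, with 2 arrays each, were Id2-GFP+ CDP, Id2-GFP+ pre-CD8, Id2-GFP- CDP and Id2-GFP- pre-CD8. CDP stands for common dendritic cell progenitor, while pre-CD8 is a progenitor stage that the labels name without defining it. All samples were cells sorted from marrow of mice heterozygous for a reporter. Titles and sources name an Id2 reporter that expresses green fluorescent protein from an internal ribosome entry site. The genotype field names that reporter for 2 samples only, both Id2-GFP- CDP, and names a Zbtb46-GFP reporter for the other 6, so groups were taken from the titles. Age, sex, strain, sort gates and any pooling of mice were not given in the sources used here. Green fluorescent protein can outlast the transcript it reports, so the sort reads past as well as present activity of the locus.

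Id2 is a helix-loop-helix protein without a DNA-binding region. It pairs with E proteins such as Tcf3, Tcf4 and Tcf12 and keeps them off the E-box sequences they bind. E proteins support plasmacytoid dendritic cell and lymphoid programmes, and Id2 is needed for the conventional class termed cDC1, which presents captured antigen to CD8 T cells and depends on Irf8 and Batf3. Conventional dendritic cells are also known for their MHC class II, which presents antigen to CD4 T cells.

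Values are log2 of the deposited array intensity, and a difference is the Id2-GFP+ minus the Id2-GFP- value in log2 units with the standard error of the fit. The fit was limma's linear model with a reporter term and an additive stage term. A gene was said to rise or fall where its Benjamini-Hochberg adjusted p over all 19938 genes was under 0.05, with 4 arrays in each class. The gap is the distance between the nearest arrays of the 2 classes. Median log2 intensity was 6.12 to 6.27 on the 8 arrays, and r between replicate arrays, taken across genes, was 0.984 to 0.989. By mean intensity, 1 array of every population was brighter (461 to 478 over the 4 brighter arrays) and the other was dimmer (402 to 414 over the 4 dimmer arrays). Values within these sets are given beside the main results. A fit with the brightness set as a block, a split read from the arrays and not from the labels, called 6.49% of all genes higher and 9.01% lower. Its counts are given for some of the lists, and lists without them could also move under the block. Flt3, Irf8 and Spi1, which mark these progenitors, were measured well above the median on every array, whereas Klf1 (erythroid), Cd79a (B cell) and Ncr1 (natural killer cell) lay near or below it. Markers of neutrophils and monocytes were not low. S100a8 (neutrophil) was 12.56 to 13.30 on the Id2-GFP+ arrays and 8.17 to 9.79 on the Id2-GFP- arrays. Ccr2 (monocyte) was 10.25 to 11.11 and 6.97 to 9.61. Lists of genes are read against the share of all genes, which was 5.42% with all Id2-GFP+ arrays above and 4.53% with all below, and against a median difference over all genes of 0.00. At an unadjusted p under 0.05 by limma, 1524 of all 19938 genes were higher and 1789 lower. List counts at that limit are read against these.

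Separation of the classes went with larger differences among the genes higher in Id2-GFP+ cells. By the limma fit 438 genes rose (2.2% of those tested) and 213 fell (1.07%), at adjusted p under 0.05. Of the 1081 genes with all Id2-GFP+ arrays above, 418 rose by that fit (2.1% of all genes tested), and of the 903 with all below, 197 fell (0.988%). Since the choice of genes used this same contrast, these shares are descriptions. The median difference was 0.745 among the 1081 genes and -0.523 among the 903. A difference of at least 2 log2 units was reached by 111 genes above and by 4 below, and of at least 3 by 34 genes above and by 0 below. A gap of at least 1 log2 unit separated the classes for 99 genes above and for 0 below. The rule admitted very small gaps. Just inside it were E2f8, an atypical E2F repressor of the cell cycle, with 10.69 to 11.03 on the Id2-GFP+ arrays, against 8.64 to 10.69 on the Id2-GFP- arrays, and Mmp28, a matrix metalloproteinase, with 6.69 to 7.45 on the Id2-GFP+ arrays, against 6.29 to 6.69 on the Id2-GFP- arrays. On the lower side Eif3f, a translation initiation subunit, had 10.23 to 10.48 on the Id2-GFP+ arrays, against 10.48 to 10.63 on the Id2-GFP- arrays, and Odr4, a membrane protein, had 8.24 to 8.80 on the Id2-GFP+ arrays, against 8.80 to 9.07 on the Id2-GFP- arrays. Just outside it on the higher side were Rprl1, with 7.20 to 7.49 on the Id2-GFP+ arrays, against 7.01 to 7.20 on the Id2-GFP- arrays, and Wnt7b, with 6.15 to 6.34 on the Id2-GFP+ arrays, against 6.05 to 6.15 on the Id2-GFP- arrays. Just outside on the lower side were Snx31, with 5.31 to 5.50 on the Id2-GFP+ arrays, against 5.50 to 5.72 on the Id2-GFP- arrays, and Tlx2, with 5.60 to 5.66 on the Id2-GFP+ arrays, against 5.66 to 5.78 on the Id2-GFP- arrays. At 2 decimals these gaps cannot be told from 0. The numbers of calls depended on single arrays. Without Id2-GFP+ pre-CD8 replicate 1, Id2-GFP+ pre-CD8 replicate 2, Id2-GFP- CDP replicate 1, Id2-GFP- pre-CD8 replicate 1 or Id2-GFP- pre-CD8 replicate 2 the fit gave 239, 239, 258, 213 or 215 rising genes, and 22, 30, 52, 16 or 23 falling genes. Without Id2-GFP+ CDP replicate 1 it gave 38 falling genes, and without Id2-GFP+ CDP replicate 2 it gave 555. Under quantile normalization 930 genes rose and 898 fell, so that 50.9% of calls were rises, against 67.3% in the values as deposited.

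Id2, the gene whose reporter was sorted, serves as a check of the labels and not as a finding. Its log2 intensity was 9.77 and 9.26 in Id2-GFP+ CDP and 10.69 and 10.995 in Id2-GFP+ pre-CD8, against 5.14 and 6.30 in Id2-GFP- CDP and 5.90 and 7.18 in Id2-GFP- pre-CD8. The lowest Id2-GFP+ array stood 2.08 above the highest Id2-GFP- array, so the titles and the transcript went the same way on all 8 arrays. Id2 rose by 4.05 ± 0.34, which is 16.5-fold, with an adjusted p of 0.000705 by limma, and its difference was 4.61 and 3.49 within the brighter and the dimmer arrays. It ranked 8 by size of difference and 24 by gap among all genes. In RNA from sorted populations, more cells holding a transcript and more of it per cell cannot be told apart. Zbtb46, a transcription factor of conventional dendritic cells and the reporter gene that the genotype field names for 6 samples, was 7.08 and 6.96 in Id2-GFP+ CDP and 7.68 and 8.04 in Id2-GFP+ pre-CD8, against 5.48 and 6.13 in Id2-GFP- CDP and 5.50 and 6.12 in Id2-GFP- pre-CD8. Its classes were also apart on all 8 arrays, with a difference of 1.63 ± 0.24 and an adjusted p of 0.00891 by limma. As both Id2-GFP- CDP samples carry the other entry in the genotype field, that field and the population cannot be told apart for them.

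Plbd1 and Ifi205 differed by more than Id2 did. Plbd1 encodes a lysosomal phospholipase B-like protein and had the smallest p of all genes. Plbd1 was 11.40 and 11.66 in Id2-GFP+ CDP and 12.34 and 12.83 in Id2-GFP+ pre-CD8, against 6.59 and 7.23 in Id2-GFP- CDP and 7.47 and 8.07 in Id2-GFP- pre-CD8. The class gap was 3.33, and the difference was 4.72 ± 0.21 (adjusted p = 5.83e-05 by limma), with 4.62 in CDP and 4.82 in pre-CD8. Ifi205, a member of the interferon-inducible Ifi200 family that is abundant in CD8-type dendritic cells, was 10.94 and 10.90 in Id2-GFP+ CDP and 11.73 and 11.83 in Id2-GFP+ pre-CD8, against 5.89 and 7.22 in Id2-GFP- CDP and 6.30 and 6.39 in Id2-GFP- pre-CD8. Its gap of 3.68 was the widest among the genes named, and it rose by 4.90 ± 0.31 (adjusted p = 0.000154 by limma). Its relative Ifi203 rose by only 0.83 ± 0.13.

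Further genes had wide gaps and are known from several kinds of immune cell. Serpinb10, an intracellular serine protease inhibitor of blood cells, was 9.02 and 9.10 in Id2-GFP+ CDP and 9.37 and 9.66 in Id2-GFP+ pre-CD8, against 4.53 and 5.92 in Id2-GFP- CDP and 4.30 and 4.96 in Id2-GFP- pre-CD8. Cd226, an adhesion receptor that cDC1 and cytotoxic lymphocytes carry, was 7.99 and 8.44 in Id2-GFP+ CDP and 9.29 and 9.74 in Id2-GFP+ pre-CD8, against 4.68 and 5.01 in Id2-GFP- CDP and 4.49 and 4.51 in Id2-GFP- pre-CD8. On every Id2-GFP- array Cd226 was at or below 5.01, whereas Id2-GFP+ CDP and Id2-GFP+ pre-CD8 lay apart from these and from each other. Clec4a2, a C-type lectin receptor with an inhibitory motif, was 8.50 and 9.20 in Id2-GFP+ CDP and 7.84 and 8.19 in Id2-GFP+ pre-CD8, against 4.90 and 5.14 in Id2-GFP- CDP and 4.67 and 5.07 in Id2-GFP- pre-CD8. Serpinb10 rose by 4.36 ± 0.33, Cd226 by 4.20 ± 0.32 and Clec4a2 by 3.49 ± 0.22, with adjusted p-values of 0.00049, 0.00049 and 0.000154 by limma. The difference in Clec4a2 was 3.83 in CDP and 3.14 in pre-CD8, and in Cd226 it was 3.37 and 5.02. Slamf7, a homotypic receptor of the SLAM family, was 8.07 and 8.44 in Id2-GFP+ CDP and 9.82 and 10.49 in Id2-GFP+ pre-CD8, against 4.63 and 5.73 in Id2-GFP- CDP and 5.07 and 5.92 in Id2-GFP- pre-CD8, a rise of 3.87 ± 0.39 (adjusted p = 0.0017 by limma).

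**Figure D1:**
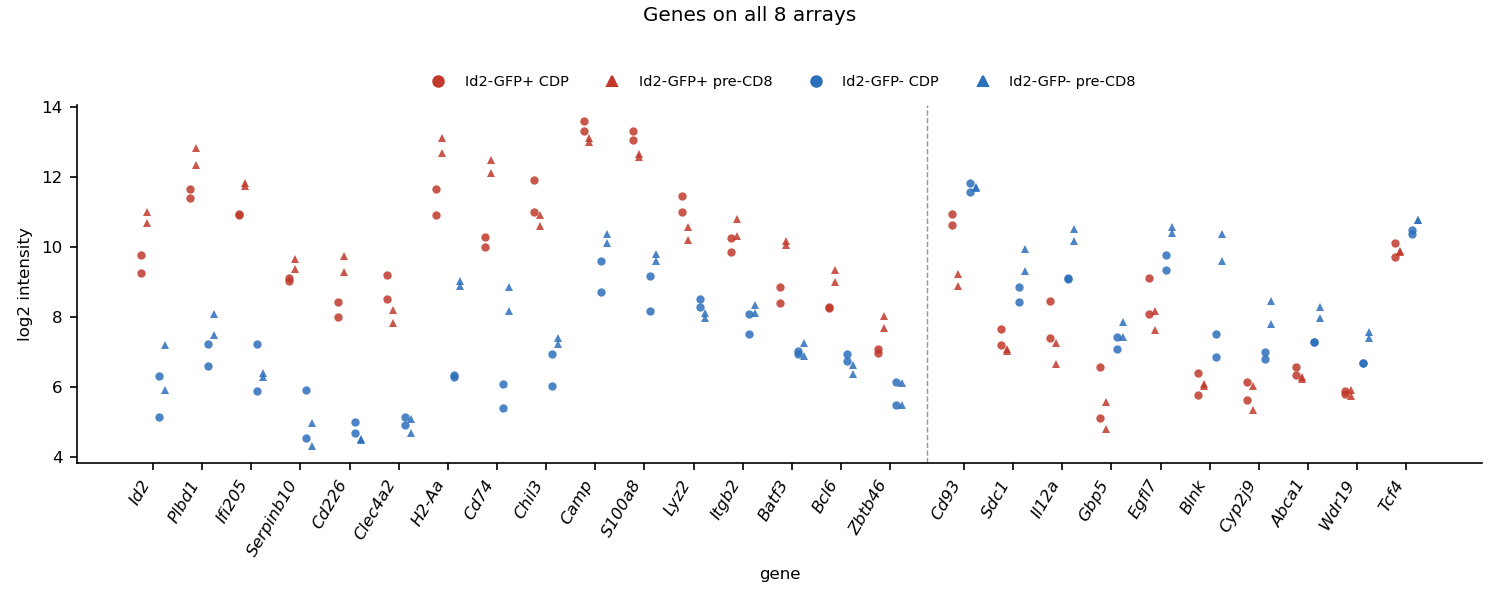
Log2 intensity (vertical axis) of 16 genes higher and 10 genes lower in Id2-GFP+ progenitors (horizontal axis), with a point for each of the 8 arrays; red is Id2-GFP+, blue is Id2-GFP-, circles are CDP and triangles are pre-CD8. In each gene shown the 4 red points lie on 1 side of the 4 blue points, with gaps that reach 3.68 for Ifi205 on the left and at most 0.77 on the right.

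The MHC class II pathway rose as a group. Of its 9 measured genes, 8 had all Id2-GFP+ arrays above and 6 rose, against 5.42% and 2.2% of all genes. The list's median difference was 2.82, with 1.98 in CDP and 3.34 in pre-CD8, and with 3.20 and 2.44 within the brighter and dimmer arrays. H2-Aa, the I-A alpha chain, was 10.90 and 11.66 in Id2-GFP+ CDP and 12.68 and 13.11 in Id2-GFP+ pre-CD8, against 6.29 and 6.34 in Id2-GFP- CDP and 8.88 and 9.04 in Id2-GFP- pre-CD8. The Id2-GFP+ arrays were higher at each stage, and pre-CD8 was higher than CDP within each class. H2-Aa rose by 4.45 ± 0.25, which is 21.9-fold, with an adjusted p of 0.000147 by limma. H2-Ab1, the I-A beta chain, was 10.77 and 11.06 in Id2-GFP+ CDP and 12.59 and 13.07 in Id2-GFP+ pre-CD8, against 8.04 and 7.93 in Id2-GFP- CDP and 9.47 and 9.52 in Id2-GFP- pre-CD8, a rise of 3.13 ± 0.16. Cd74, the invariant chain that escorts class II through the secretory pathway, was 9.99 and 10.29 in Id2-GFP+ CDP and 12.12 and 12.48 in Id2-GFP+ pre-CD8, against 5.40 and 6.09 in Id2-GFP- CDP and 8.16 and 8.85 in Id2-GFP- pre-CD8, a rise of 4.10 ± 0.24. H2-Aa, H2-Ab1 and Cd74 were also the only genes with all Id2-GFP+ arrays above that passed the stage term as higher in pre-CD8 (a call that 0.0351% of all genes had, against 0.0802% lower in pre-CD8), by 2.13, 1.71 and 2.46 (adjusted p of 0.0277, 0.0169 and 0.0169 by limma). For each of them Id2-GFP+ CDP lay above Id2-GFP- pre-CD8. H2-Eb1, the I-E beta chain, rose by 3.28 ± 0.31. Ciita, the master transactivator of class II genes, was 7.22 and 7.61 in Id2-GFP+ CDP and 9.25 and 10.15 in Id2-GFP+ pre-CD8, against 5.55 and 5.31 in Id2-GFP- CDP and 5.80 and 6.27 in Id2-GFP- pre-CD8 and rose by 2.82 ± 0.35 (adjusted p = 0.00427 by limma). H2-Oa, which moderates peptide loading, rose by 1.25 ± 0.22, a call lost without Id2-GFP- CDP replicate 1, either Id2-GFP- pre-CD8 array or Id2-GFP+ pre-CD8 replicate 1 (adjusted p of at most 0.0779). The peptide editor H2-DMa and the protease Ctss, which trims the invariant chain, had no overlap but differed by only 0.48 ± 0.12 and 0.77 ± 0.18, with adjusted p of 0.077 and 0.0574. The other chain of the H2-O molecule, H2-Ob, was the exception, with overlapping classes and a difference of -0.42 ± 0.30. The 11 measured genes of the MHC class I pathway did not share the pattern. H2-K1 and H2-D1, also listed, were not among the genes tested. Of the 11, 1 (Tapbp, a peptide-loading chaperone) had all Id2-GFP+ arrays above. The Tapbp difference of 0.66 ± 0.19 did not pass, with an adjusted p of 0.0998 by limma. The list's median difference was 0.03.

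The 120 bases before the annotated start are shown for 4 rising genes, because class II genes are known to share a CCAAT-type box and because Id2 acts through E proteins. They are H2-Aa, H2-Eb1, S100a8, a calprotectin subunit described below, and Plbd1, from RefSeq on build GRCm38.p6, read 5′ to 3′ towards the gene. Capitals mark CCAAT on either strand (CCAAT or ATTGG) and, on either strand, the E-box letters CAGCTG or CACCTG (the other strand of CACCTG reads CAGGTG).
H2-Aa, chr17:34287824-34287943, minus strand: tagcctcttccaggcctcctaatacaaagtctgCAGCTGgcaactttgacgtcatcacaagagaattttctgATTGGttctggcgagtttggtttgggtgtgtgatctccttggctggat
H2-Eb1, chr17:34305747-34305866, plus strand: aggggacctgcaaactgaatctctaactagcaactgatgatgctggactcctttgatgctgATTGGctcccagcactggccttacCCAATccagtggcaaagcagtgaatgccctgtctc
S100a8, chr3:90668951-90669070, plus strand: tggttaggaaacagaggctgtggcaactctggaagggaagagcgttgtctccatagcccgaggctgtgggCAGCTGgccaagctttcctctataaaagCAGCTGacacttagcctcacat
Plbd1, chr6:136661894-136662013, minus strand: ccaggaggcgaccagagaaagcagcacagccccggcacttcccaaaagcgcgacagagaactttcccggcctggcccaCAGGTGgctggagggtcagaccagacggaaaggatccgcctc
H2-Aa has ATTGG starting 48 bases before the start and H2-Eb1 has it at 59 bases, with a CCAAT at 35. S100a8 has CAGCTG at 50 and 22 bases before the start, H2-Aa at 87, and Plbd1 has CAGGTG at 42. Over the 250 bases before the start, CCAAT on either strand was in 36.9% of 886 promoters of genes with all Id2-GFP+ arrays above, in 37.8% of 731 promoters of genes with all below and in 35.5% of the 15614 promoters of all tested genes that the table holds. CAGCTG or CACCTG on either strand was in 28.1%, 23.9% and 26.6% of the same promoters. These shares lay within a few percentage points of the share over all genes, and a match of letters is a description of the sequence only.

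Genes of neutrophil secondary granules and calprotectin formed the most complete group. Of 19 measured, 18 had all Id2-GFP+ arrays above and all 18 of these rose, with a list median of 2.98 (3.12 and 2.85 within the brighter and dimmer arrays). Chil3, which resembles chitinases and is made by myeloid cells, was 10.98 and 11.92 in Id2-GFP+ CDP and 10.59 and 10.91 in Id2-GFP+ pre-CD8, against 6.95 and 6.03 in Id2-GFP- CDP and 7.41 and 7.23 in Id2-GFP- pre-CD8, a rise of 4.19 ± 0.36 (adjusted p = 0.000844 by limma). Camp, the antimicrobial cathelicidin, was 13.30 and 13.58 in Id2-GFP+ CDP and 12.98 and 13.11 in Id2-GFP+ pre-CD8, against 9.59 and 8.72 in Id2-GFP- CDP and 10.10 and 10.37 in Id2-GFP- pre-CD8, a rise of 3.55 ± 0.31. S100a8 was 13.05 and 13.30 in Id2-GFP+ CDP and 12.56 and 12.65 in Id2-GFP+ pre-CD8, against 9.17 and 8.17 in Id2-GFP- CDP and 9.58 and 9.79 in Id2-GFP- pre-CD8, a rise of 3.71 ± 0.33. In each of these genes the Id2-GFP+ CDP arrays were the highest of all and the lowest Id2-GFP+ array was more than 2 log2 units above every Id2-GFP- array. Ltf (lactoferrin), Lcn2 (lipocalin 2) and Fcnb (a ficolin) rose by 3.89 ± 0.41, 3.84 ± 0.40 and 3.65 ± 0.46. S100a9, the partner of S100a8, rose by 3.14 ± 0.28, Anxa1, an annexin that restrains inflammation, by 2.68 ± 0.22, and Cebpe, the transcription factor of late granule genes, by 2.19 ± 0.31. Ly6g, the surface antigen by which mouse neutrophils are identified, was 8.65 and 9.54 in Id2-GFP+ CDP and 7.66 and 8.05 in Id2-GFP+ pre-CD8, against 5.36 and 5.26 in Id2-GFP- CDP and 5.41 and 5.57 in Id2-GFP- pre-CD8 and rose by 3.08 ± 0.31 (adjusted p = 0.00165 by limma). Retnlg and the chemokine receptor Cxcr2, both of late neutrophils, rose by 2.80 ± 0.39 and 2.03 ± 0.36. The call of Cxcr2 was lost without replicate 1 of either CDP population or without Id2-GFP+ pre-CD8 replicate 2, where adjusted p reached 0.0706. Stfa2 was the member with overlapping classes, at 3.51 to 4.07 on the Id2-GFP+ arrays, against 3.60 to 4.20 on the Id2-GFP- arrays.

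The summed intensity of the 19 granule genes was 45197 to 84753 on the Id2-GFP+ arrays and 3625 to 8706 on the Id2-GFP- arrays, a ratio of means of 9.27. As these defining neutrophil markers moved with the reporter class, their part in the other differences reported here was not tested. In 16 of the 18 genes the difference was larger in CDP than in pre-CD8, with list medians of 3.62 and 2.49, whereas 827 of all 1081 genes with Id2-GFP+ arrays above had the larger difference in pre-CD8. By the interaction contrast of limma 0 of the 19 passed at adjusted p under 0.05, and 11 had an unadjusted p under 0.05. Among all 19938 genes 1227 had an unadjusted p under 0.05 by that contrast. Genes of primary granules, which are made earlier in granulocyte development, were not separated in the same way. Of 11 measured, 0 had classes that did not overlap, and the list median was -0.13. By limma 0 rose and 1 fell, with 2 higher and 3 lower at an unadjusted p under 0.05 and likewise 2 and 3 with the brightness set as a block, and their summed intensity was 6099 to 30700 on Id2-GFP+ arrays and 9814 to 30612 on Id2-GFP- arrays.

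**Figure D2:**
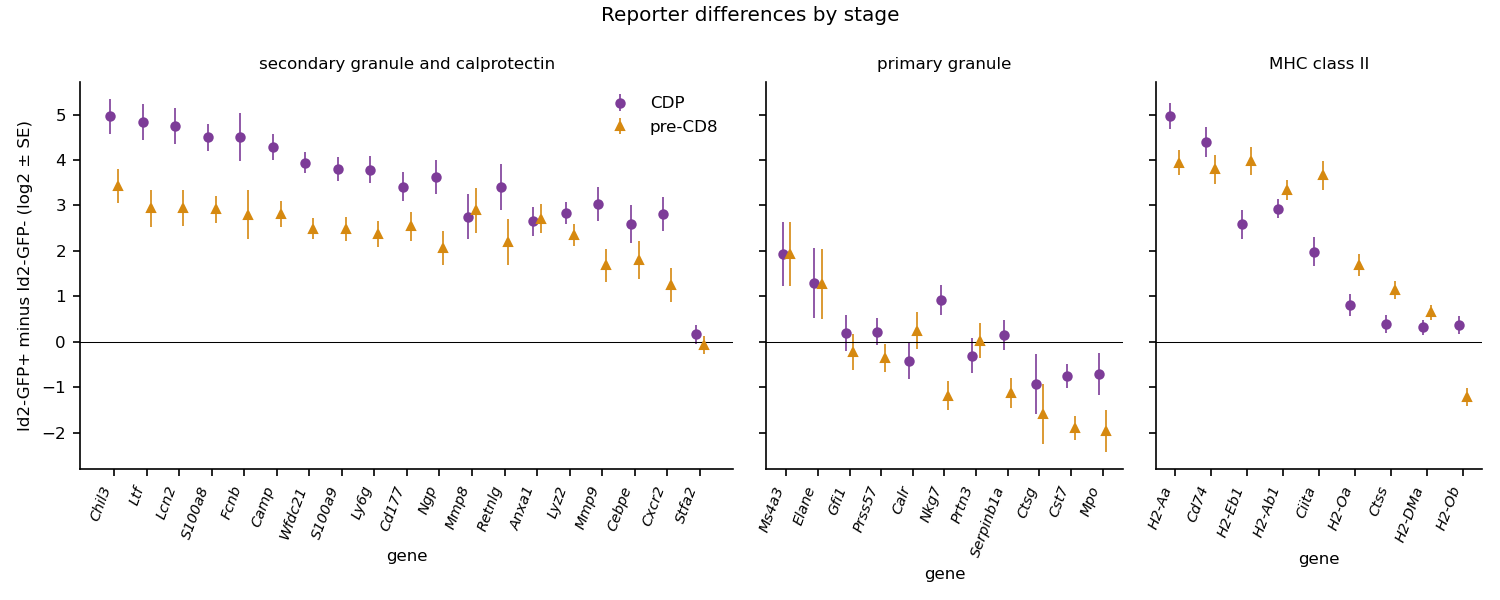
Difference between Id2-GFP+ and Id2-GFP- arrays (vertical axis, log2 with the standard error of the fit) in CDP (purple circles) and pre-CD8 (orange triangles) for each measured gene (horizontal axis) of the secondary granule and calprotectin, primary granule and MHC class II lists. The granule medians are 3.62 in CDP and 2.49 in pre-CD8, while class II medians are 1.98 and 3.34, and primary granule genes lie on both sides of 0.

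Markers of cDC1 and of conventional dendritic cells in general were raised in part. Of 22 cDC1 markers, 13 had all Id2-GFP+ arrays above, 11 rose and 0 fell (0 lower at an unadjusted p under 0.05), with a median difference of 1.25 (1.49 and 1.08 within the brighter and dimmer arrays). Batf3, a transcription factor that sustains Irf8 in cDC1, was 8.85 and 8.41 in Id2-GFP+ CDP and 10.04 and 10.18 in Id2-GFP+ pre-CD8, against 6.94 and 7.02 in Id2-GFP- CDP and 6.89 and 7.24 in Id2-GFP- pre-CD8, a rise of 2.35 ± 0.28 (adjusted p = 0.00335 by limma). Tlr3, a sensor of double-stranded RNA, was 7.30 and 7.75 in Id2-GFP+ CDP and 9.48 and 10.63 in Id2-GFP+ pre-CD8, against 5.15 and 5.19 in Id2-GFP- CDP and 5.69 and 5.78 in Id2-GFP- pre-CD8, a rise of 3.34 ± 0.40. Naaa, a lysosomal acid amidase, was 10.01 and 10.34 in Id2-GFP+ CDP and 11.01 and 11.87 in Id2-GFP+ pre-CD8, against 7.63 and 7.64 in Id2-GFP- CDP and 7.18 and 6.80 in Id2-GFP- pre-CD8, a rise of 3.50 ± 0.38. In each of them the pre-CD8 difference was the larger, at 3.04, 4.32 and 4.45, against 1.65, 2.36 and 2.55 in CDP. Rab7b, a GTPase of late endosomes, rose by 2.40 ± 0.41, a call lost without replicate 1 of Id2-GFP- pre-CD8 or of Id2-GFP+ pre-CD8 (adjusted p of at most 0.0657). Plpp1, a lipid phosphatase, rose by 1.34 ± 0.19, Wdfy4, which cDC1 need for cross-presentation, by 1.10 ± 0.18, and Cd24a, a surface glycoprotein, by 0.64 ± 0.10. Several defining cDC1 genes did not separate by reporter class. Xcr1, the chemokine receptor of mature cDC1, was at 4.84 to 5.66 on the Id2-GFP+ arrays, against 4.61 to 5.20 on the Id2-GFP- arrays. Irf8, the lineage-determining factor, was at 12.62 to 13.01 on the Id2-GFP+ arrays, against 11.46 to 12.77 on the Id2-GFP- arrays, with an adjusted p of 0.21 by limma. The Irf8 difference was 0.085 ± 0.223 in CDP and 1.14 ± 0.22 in pre-CD8, where it passed (adjusted p = 0.0205 by limma). The interaction contrast did not pass for Irf8 (adjusted p = 0.387 by limma). Clec9a, a receptor for dead cells, was 9.01 and 9.52 in Id2-GFP+ CDP and 9.78 and 10.55 in Id2-GFP+ pre-CD8, against 8.92 and 9.65 in Id2-GFP- CDP and 5.47 and 6.28 in Id2-GFP- pre-CD8. Clec9a thus overlapped through CDP, where its difference was -0.02, while in pre-CD8 it was 4.29. Cadm1, an adhesion gene of the immunoglobulin superfamily, Itgae and Cd8a also overlapped.

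Among 20 markers shared by conventional dendritic cells, Id2 included, 11 had all Id2-GFP+ arrays above and 10 rose, and all 11 had the larger difference in pre-CD8. Bcl6, a transcriptional repressor, was 8.27 and 8.25 in Id2-GFP+ CDP and 8.99 and 9.34 in Id2-GFP+ pre-CD8, against 6.73 and 6.94 in Id2-GFP- CDP and 6.64 and 6.37 in Id2-GFP- pre-CD8, a rise of 2.04 ± 0.25 (adjusted p = 0.00381 by limma). Adam19, a metalloprotease, rose by 1.47 ± 0.22, and Cst3, a cysteine protease inhibitor, by 0.96 ± 0.16. Flt3, the receptor that drives dendritic cell development, went the other way without passing, at 10.73 to 11.53 on the Id2-GFP+ arrays, against 11.44 to 12.58 on the Id2-GFP- arrays with a difference of -0.83 ± 0.20 and an adjusted p of 0.0601. Kit and Ccr7 overlapped widely. Of 19 markers of cDC2, the other conventional class, 5 had all Id2-GFP+ arrays above and the list median was 0.19. Those 5 were Clec4a2, Cd209a, S100a4, Klf4 and Itgam, and none of Sirpa, Irf4, Clec10a or Mgl2 was among them. Cd209a, a lectin of the DC-SIGN family, was 9.83 and 9.53 in Id2-GFP+ CDP and 9.32 and 9.11 in Id2-GFP+ pre-CD8, against 5.99 and 8.06 in Id2-GFP- CDP and 5.60 and 5.97 in Id2-GFP- pre-CD8, a rise of 3.04 ± 0.40 (adjusted p = 0.00527 by limma). The call of Cst3 was lost without Id2-GFP+ pre-CD8 replicate 1 or without either Id2-GFP- pre-CD8 array, where adjusted p reached 0.0571.

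Monocyte and macrophage markers rose in part. Of 18 markers, among them Lyz2 of the granule list and Csf1r, Klf4 and Cx3cr1 of the dendritic cell lists, 9 had all Id2-GFP+ arrays above, 8 rose and 1 fell, with a median of 0.58. The list median was 0.36 in CDP and 1.05 in pre-CD8, and 2 of the 18 passed the interaction contrast of limma. Summed intensity was 20330 to 25012 on the Id2-GFP+ arrays, 20473 and 19543 in Id2-GFP- CDP, and 7556 and 7800 in Id2-GFP- pre-CD8. Lyz2, the lysozyme of myeloid cells, was 10.99 and 11.45 in Id2-GFP+ CDP and 10.19 and 10.57 in Id2-GFP+ pre-CD8, against 8.51 and 8.27 in Id2-GFP- CDP and 8.11 and 7.96 in Id2-GFP- pre-CD8, a rise of 2.59 ± 0.18 (adjusted p = 0.000309 by limma). Csf1r, the receptor for macrophage colony-stimulating factor and the member that fell, was 10.14 and 10.53 in Id2-GFP+ CDP and 8.09 and 7.93 in Id2-GFP+ pre-CD8, against 11.11 and 10.97 in Id2-GFP- CDP and 9.30 and 8.90 in Id2-GFP- pre-CD8, a difference of -0.89 ± 0.17. The Csf1r arrays overlapped across stages, as Id2-GFP+ CDP lay above Id2-GFP- pre-CD8, but the classes were ordered within each stage. Fcgr3, Clec5a, Cybb and the integrins below are not in the monocyte list. Fcgr3, an activating receptor for IgG, rose by 1.99 ± 0.17, and Clec5a, a lectin that signals through DAP12, by 2.16 ± 0.20. Cybb, the oxidase subunit of the phagocyte burst and a member of the plasmacytoid list, rose by 2.65 ± 0.21. All Id2-GFP+ arrays were above in 2 of 10 Fc receptors, 6 of 21 C-type lectin receptors (1 had all below) and 5 of 19 integrins. The medians of these lists were 0.68, 0.56 and 0.17. Itgb2, the common beta chain of the leukocyte integrins, was 9.85 and 10.24 in Id2-GFP+ CDP and 10.31 and 10.79 in Id2-GFP+ pre-CD8, against 7.50 and 8.09 in Id2-GFP- CDP and 8.12 and 8.33 in Id2-GFP- pre-CD8, a rise of 2.29 ± 0.19 with 2.25 in CDP and 2.32 in pre-CD8. Its paralog Itgb2l rose by 2.17 ± 0.26, and Itgb7, which pairs with alpha 4 and alpha E chains, by 2.10 ± 0.33. Among 17 annexin and S100 genes, of which S100a8, S100a9 and Anxa1 are also granule genes, 11 had all Id2-GFP+ arrays above and 10 rose, with a median of 1.47. Anxa2, which links membranes to actin, was 10.32 and 10.35 in Id2-GFP+ CDP and 10.57 and 11.01 in Id2-GFP+ pre-CD8, against 8.995 and 9.12 in Id2-GFP- CDP and 7.78 and 7.48 in Id2-GFP- pre-CD8, a rise of 2.22 ± 0.34, with 1.28 in CDP and 3.15 in pre-CD8. Of 18 toll-like receptors and adaptors 6 had all Id2-GFP+ arrays above and 4 rose (7 with the brightness set as a block), Tlr13, a sensor of bacterial RNA, by 1.28 ± 0.18 and Tlr12, a profilin sensor that is also in the cDC1 list, by 1.94 ± 0.32. The call of Csf1r was lost without any 1 of 6 arrays (all but replicate 2 of the Id2-GFP+ CDP and Id2-GFP- CDP populations), and that of Tlr12 without Id2-GFP- pre-CD8 replicate 2 or Id2-GFP+ pre-CD8 replicate 1, at adjusted p of at most 0.094 and 0.0555. Probe sets of close relatives, such as the Ifi200, Clec4, Cd209, Ly6 and Ms4a families, may pick up transcripts of their relatives, which makes these values less certain.

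Transcription factors and helix-loop-helix genes changed selectively. Of 37 dendritic cell and myeloid transcription factors 10 had all Id2-GFP+ arrays above, 1 had all below, and the median was 0.24. By limma 7 rose and 1 fell, or 13 and 5 with the brightness set as a block. Besides Batf3, Bcl6, Zbtb46 and Cebpe, the risers included Irf5, an interferon regulatory factor, by 1.47 ± 0.25, and Klf4, a Krüppel-like factor of monocytes and cDC2, by 2.27 ± 0.43. Zeb2, a zinc-finger repressor that favours plasmacytoid and monocytic fates, was 8.16 and 9.30 in Id2-GFP+ CDP and 6.45 and 7.11 in Id2-GFP+ pre-CD8, against 10.20 and 9.70 in Id2-GFP- CDP and 9.25 and 8.84 in Id2-GFP- pre-CD8, a difference of -1.74 ± 0.32 (adjusted p = 0.0258 by limma). Within each stage the Zeb2 classes were apart, although Id2-GFP+ CDP replicate 2 lay above the Id2-GFP- pre-CD8 arrays. Nfil3, a leucine-zipper factor upstream of Id2 in cDC1 development, overlapped at 9.76 to 10.84 on the Id2-GFP+ arrays, against 9.04 to 10.80 on the Id2-GFP- arrays. Among 28 helix-loop-helix genes 6 had all Id2-GFP+ arrays above and 4 all below, with a median of -0.05. By limma 2 of the 28 rose and 2 fell, or 7 and 4 with the brightness set as a block. Tcf4, the E protein of plasmacytoid dendritic cells, was 9.71 and 10.12 in Id2-GFP+ CDP and 9.87 and 9.84 in Id2-GFP+ pre-CD8, against 10.36 and 10.47 in Id2-GFP- CDP and 10.77 and 10.77 in Id2-GFP- pre-CD8, a fall with a difference of -0.70 ± 0.15 (adjusted p = 0.0406 by limma). The other E proteins overlapped, with differences of -0.23 ± 0.15 for Tcf3 and -0.26 ± 0.18 for Tcf12, as did Id1 and Id3. Mxd3, a Max partner seen in dividing cells, was 9.51 and 9.58 in Id2-GFP+ CDP and 9.26 and 9.92 in Id2-GFP+ pre-CD8, against 8.39 and 8.56 in Id2-GFP- CDP and 7.34 and 7.39 in Id2-GFP- pre-CD8, a rise of 1.65 ± 0.25. Mycl, the Myc relative of dendritic cells, rose by 1.37 ± 0.27, while Mxd4 fell, with a difference of -1.01 ± 0.21. The calls of Zeb2 and Mxd4 were lost without any 1 of 6 arrays (all but replicate 2 of the CDP populations), that of Tcf4 without any array except Id2-GFP+ CDP replicate 2, those of Klf4 and Mycl without Id2-GFP- CDP replicate 1 or any pre-CD8 array, and that of Irf5 without either Id2-GFP- pre-CD8 array or Id2-GFP+ pre-CD8 replicate 1. Adjusted p then reached at most 0.0839, 0.135, 0.154, 0.0949, 0.0991 and 0.0659 for Zeb2, Mxd4, Tcf4, Klf4, Mycl and Irf5.

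Of 21 markers of T, NK and innate lymphoid cells 10 had all Id2-GFP+ arrays above and 6 rose (11 with the brightness set as a block), with a median of 0.55 and sums of 3609 to 5891 on Id2-GFP+ arrays and 1436 to 3311 on Id2-GFP- arrays. Ncr1, an activating receptor of natural killer cells, was 6.07 and 6.29 in Id2-GFP+ CDP and 5.64 and 5.36 in Id2-GFP+ pre-CD8, against 4.53 and 4.17 in Id2-GFP- CDP and 4.36 and 4.33 in Id2-GFP- pre-CD8, a rise of 1.49 ± 0.16 (adjusted p = 0.00274 by limma). Gzma, a granzyme, was 5.93 and 6.68 in Id2-GFP+ CDP and 5.87 and 5.94 in Id2-GFP+ pre-CD8, against 4.95 and 4.93 in Id2-GFP- CDP and 4.78 and 4.98 in Id2-GFP- pre-CD8, a rise of 1.20 ± 0.17. Both were below or near the median intensity of the arrays on all 8, so these rises were between dim values. Thy1, a glycoprotein of T cells and innate lymphoid cells, rose by 1.02 ± 0.15, and Tbx21, the T-bet transcription factor, by 0.87 ± 0.12. The T cell receptor chains Cd3e, Cd3d and Cd3g had all Id2-GFP+ arrays above but did not pass, with differences of 0.19, 0.63 and 0.66 and adjusted p of 0.482, 0.0649 and 0.121. Prf1 and Gzmb, of cytotoxic granules, overlapped. Of 21 B lineage and recombination genes 2 had all Id2-GFP+ arrays above and 5 all below, 2 rose and 3 fell, and the median was -0.61 (3 higher and 12 lower at an unadjusted p under 0.05, and 2 rising and 7 falling with the brightness set as a block). The median was -0.09 in CDP and -1.13 in pre-CD8. Sums were 3202 to 4486 on Id2-GFP+ arrays, 4294 and 3758 in Id2-GFP- CDP, and 10950 and 12405 in Id2-GFP- pre-CD8. By the interaction contrast of limma 4 of the 21 passed at adjusted p under 0.05, against 0.145% of all genes. The risers were Cd22, an inhibitory lectin, by 3.29 ± 0.51, and Fcrla, an intracellular Fc receptor-like protein, by 1.88 ± 0.27. Blnk, Cd69 and Vpreb1, described below, were those that fell, and Cd79a and Pax5 overlapped.

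Genes of mitosis lay higher and genes of ribosome assembly lower. Of 33 genes of G2 and M phase 15 had all Id2-GFP+ arrays above and 6 rose, with a median difference of 0.94 that was 0.36 in CDP and 1.53 in pre-CD8. With the brightness set as a block 27 of them rose. Nusap1, a spindle protein, was 10.97 and 11.33 in Id2-GFP+ CDP and 10.96 and 11.32 in Id2-GFP+ pre-CD8, against 10.43 and 10.43 in Id2-GFP- CDP and 9.43 and 9.26 in Id2-GFP- pre-CD8, a rise of 1.26 ± 0.23 (adjusted p = 0.0231 by limma). The 4 Id2-GFP+ arrays were alike, and Id2-GFP- pre-CD8 was the low population. Ube2c, which targets mitotic cyclins for destruction, rose by 1.21 ± 0.24 and Kif23, a cytokinesis motor, by 0.94 ± 0.20. Of 27 S phase genes 0 rose and 0 fell by limma, with 4 higher and 7 lower at an unadjusted p under 0.05 and 3 and 7 with the brightness set as a block, and the median was -0.05. Among 13 D cyclins, cyclin-dependent kinases and inhibitors, 4 rose and 0 fell, with 6 higher and 2 lower at an unadjusted p under 0.05 by limma. With the brightness set as a block 6 rose and 2 fell. The 4 included the CDK4 and CDK6 inhibitors Cdkn2d, by 1.52 ± 0.24, and Cdkn2c, by 1.57 ± 0.28, which oppose cell-cycle entry. The others were E2f2, by 1.13 ± 0.19, and Cdkn1b, by 0.505 ± 0.112. The call of Cdkn1b was lost without any 1 of the 8 arrays, at adjusted p of at most 0.186. Of 25 ribosome biogenesis genes 4 had all Id2-GFP+ arrays below, with a median of -0.47, and 0 fell by limma, with 13 lower at an unadjusted p under 0.05. With the brightness set as a block 20 of the 25 fell. Tsr1, a factor of small-subunit assembly, was 7.71 and 8.18 in Id2-GFP+ CDP and 7.70 and 7.87 in Id2-GFP+ pre-CD8, against 9.01 and 8.46 in Id2-GFP- CDP and 8.98 and 8.36 in Id2-GFP- pre-CD8, with a difference of -0.83 ± 0.20 and an adjusted p of 0.0616, or 0.00356 with that block. The calls of Nusap1 were lost without any 1 pre-CD8 array, those of Ube2c and Kif23 without any 1 of 6 arrays (all but replicate 2 of the CDP populations), that of Cdkn2c without Id2-GFP- CDP replicate 1 or any pre-CD8 array, and that of E2f2 without replicate 1 of either pre-CD8 population. Adjusted p then reached at most 0.0839, 0.117, 0.144, 0.0794 and 0.0568 for Nusap1, Ube2c, Kif23, Cdkn2c and E2f2.

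The genes lower in Id2-GFP+ progenitors included members of the early progenitor, plasmacytoid and lymphoid lists, with smaller differences than the genes that rose. Of 26 early progenitor genes 8 had all Id2-GFP+ arrays below, 6 fell and 0 rose (0 higher at an unadjusted p under 0.05, and 15 lower with the brightness set as a block), with a median of -1.02, -0.44 in CDP and -1.74 in pre-CD8. Cd93, a receptor of progenitor and endothelial cells, was 10.64 and 10.95 in Id2-GFP+ CDP and 9.22 and 8.88 in Id2-GFP+ pre-CD8, against 11.81 and 11.58 in Id2-GFP- CDP and 11.71 and 11.69 in Id2-GFP- pre-CD8, a difference of -1.77 ± 0.32 (adjusted p = 0.0231 by limma). The Id2-GFP- arrays were close to each other at both stages, while Id2-GFP+ pre-CD8 lay below Id2-GFP+ CDP. Egfl7, a secreted factor, was 8.09 and 9.11 in Id2-GFP+ CDP and 7.63 and 8.16 in Id2-GFP+ pre-CD8, against 9.75 and 9.35 in Id2-GFP- CDP and 10.56 and 10.40 in Id2-GFP- pre-CD8, a difference of -1.77 ± 0.36. Erg, a transcription factor of stem cells, differed by -1.86 ± 0.40, Adgrg1, an adhesion receptor of stem cells, by -1.98 ± 0.44, and Sox4, a transcription factor, by -1.25 ± 0.27. Cd93 lost its call without any 1 pre-CD8 array, and Egfl7, Erg, Adgrg1 and Sox4 without any 1 of 6 arrays (all but replicate 2 of the CDP populations), at adjusted p of at most 0.0786, 0.116, 0.132, 0.145 and 0.139. Cd34, the antigen used to gate progenitors, overlapped at 10.04 to 11.31 on the Id2-GFP+ arrays, against 11.14 to 12.06 on the Id2-GFP- arrays and did not pass, with an adjusted p of 0.0668.

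Of 23 plasmacytoid dendritic cell markers 5 had all Id2-GFP+ arrays below and 3 all above, with a median of -0.25. By limma 2 rose and 4 fell, with 6 higher and 10 lower at an unadjusted p under 0.05. With the brightness set as a block 4 rose and 6 fell. The 3 above were Cybb, Upb1 and Tlr9. They differed by 2.65 ± 0.21, 1.91 ± 0.38 and 1.275 ± 0.34 (adjusted p of 0.00056, 0.032 and 0.0874 by limma). Upb1 lost its call without any 1 of 6 arrays (all but replicate 2 of the CDP populations). Blnk, an adaptor of B cell receptor signalling, was 5.78 and 6.41 in Id2-GFP+ CDP and 6.09 and 6.01 in Id2-GFP+ pre-CD8, against 6.85 and 7.52 in Id2-GFP- CDP and 9.58 and 10.37 in Id2-GFP- pre-CD8, a difference of -2.51 ± 0.52 (adjusted p = 0.0385 by limma). The Blnk difference was -1.09 in CDP and -3.93 in pre-CD8. Siglech, the sialic acid lectin of plasmacytoid cells, was 8.13 and 8.12 in Id2-GFP+ CDP and 7.84 and 7.81 in Id2-GFP+ pre-CD8, against 8.20 and 9.50 in Id2-GFP- CDP and 8.53 and 10.44 in Id2-GFP- pre-CD8. It lay below throughout, but Id2-GFP- arrays spanned more than 2 log2 units and the difference of -1.19 ± 0.43 did not pass, with an adjusted p of 0.19. Sdc1, a heparan sulfate proteoglycan of plasma cells and epithelia, was 7.19 and 7.66 in Id2-GFP+ CDP and 7.10 and 7.03 in Id2-GFP+ pre-CD8, against 8.43 and 8.85 in Id2-GFP- CDP and 9.30 and 9.95 in Id2-GFP- pre-CD8. Its difference was -1.89 ± 0.29 (adjusted p = 0.0124 by limma), and it kept its call without each array in turn. Il12a, a subunit of interleukin 12, was 7.41 and 8.45 in Id2-GFP+ CDP and 7.27 and 6.65 in Id2-GFP+ pre-CD8, against 9.10 and 9.09 in Id2-GFP- CDP and 10.16 and 10.52 in Id2-GFP- pre-CD8, a difference of -2.28 ± 0.44. Cd69, an activation marker of lymphocytes that retains cells in tissue, differed by -2.36 ± 0.49, Vpreb1, a surrogate light chain, by -0.96 ± 0.17, and the guanylate-binding proteins Gbp5 and Gbp3 by -1.93 ± 0.35 and -1.61 ± 0.32. Abca1, which exports cholesterol, differed by -1.33 ± 0.21, Tgif1, a homeobox repressor, by -1.31 ± 0.21, Wdr19, a subunit of ciliary transport, by -1.26 ± 0.17, and the zinc-finger genes Zfp184 and Zfp799 by -1.25 ± 0.17 and -1.11 ± 0.15. Blnk lost its call without any array but Id2-GFP- CDP replicate 1 and Id2-GFP+ CDP replicate 2, and Il12a and Vpreb1 without Id2-GFP+ CDP replicate 1 or any pre-CD8 array, at adjusted p of at most 0.121, 0.0983 and 0.0781. Cd69, Gbp5 and Gbp3 lost it without any 1 of 6 arrays (all but replicate 2 of the CDP populations), at most 0.112, 0.0779 and 0.111. Abca1 lost it without Id2-GFP- pre-CD8 replicate 2 or Id2-GFP+ pre-CD8 replicate 1 (at most 0.0538), and Tgif1 without either of these or Id2-GFP- pre-CD8 replicate 1 (at most 0.0561).

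The fall of these genes was less stable than the rise of the others. Of 72 named genes that rose, 46 kept their call without each array in turn, and of 33 that fell, 5 did, namely Sdc1, Wdr19, Sh2d5, Zfp184 and Zfp799. Among the CDP arrays, leaving out replicate 1 or 2 of Id2-GFP+ ended 24 or 0 of the 33 falls, and leaving out replicate 1 or 2 of Id2-GFP- ended 19 or 5. Among the pre-CD8 arrays, leaving out replicate 1 or 2 of Id2-GFP+ ended 27 or 26, and leaving out replicate 1 or 2 of Id2-GFP- ended 26 or 27. With the brightness set as a block all 105 of the named genes past the fit kept their call. That block kept all 438 rising and 213 falling calls of the main fit and raised the totals to 1293 and 1797. Its result for the named genes is therefore no measure of their stability.

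The reporter difference was more often the larger in pre-CD8. Of the 1081 genes with all Id2-GFP+ arrays above, 827 had the larger difference in pre-CD8, and the median was 0.461 in CDP and 0.956 in pre-CD8. Of the 903 genes below, 705 did, with medians of -0.411 and -0.630. The stage differences lay within 2-fold of each other in 562 of the 1081 genes and in 582 of the 903. Taken stage by stage in a fit with a mean for each population, 99 of the 1081 passed at both stages, 440 in pre-CD8 only, 16 in CDP only and 526 at neither. Of the 903 genes below, 0 passed at both stages or in CDP only, 251 passed in pre-CD8 only and 652 at neither. The most even genes included Ctnnd2, a catenin, which was 8.59 and 8.65 in Id2-GFP+ CDP and 9.46 and 9.46 in Id2-GFP+ pre-CD8, against 6.75 and 7.39 in Id2-GFP- CDP and 7.73 and 8.07 in Id2-GFP- pre-CD8. Its difference was 1.55 in CDP and 1.56 in pre-CD8, and it rose by 1.55 ± 0.17 (adjusted p = 0.00281 by limma). Plod2, a lysyl hydroxylase of collagen, differed by -0.66 in CDP and -0.67 in pre-CD8, and Trub1, a pseudouridine synthase, by -0.69 and -0.69. A difference that itself differed between stages passed the interaction contrast of limma in 29 genes (0.145% of those tested), of which 7 had classes that did not overlap. Ccr2, the chemokine receptor of monocyte exit from marrow, was 10.63 and 10.25 in Id2-GFP+ CDP and 11.06 and 11.11 in Id2-GFP+ pre-CD8, against 9.49 and 9.61 in Id2-GFP- CDP and 6.97 and 6.98 in Id2-GFP- pre-CD8. Id2-GFP- pre-CD8 was the low population, and the difference was 0.89 in CDP and 4.11 in pre-CD8. Clec4b1, a C-type lectin, was 5.16 and 5.43 in Id2-GFP+ CDP and 7.07 and 7.60 in Id2-GFP+ pre-CD8, against 3.91 and 3.72 in Id2-GFP- CDP and 3.34 and 3.17 in Id2-GFP- pre-CD8, with 1.49 in CDP and 4.08 in pre-CD8. Il7r, the interleukin 7 receptor of lymphoid progenitors, was 5.72 and 6.41 in Id2-GFP+ CDP and 6.35 and 6.49 in Id2-GFP+ pre-CD8, against 6.77 and 6.62 in Id2-GFP- CDP and 10.14 and 10.52 in Id2-GFP- pre-CD8. Its classes did not overlap, yet the difference lay almost wholly in pre-CD8, at -3.91, against -0.63 in CDP. Ms4a6c, Slc18a1, Arpp21 and Cd72 were the remaining genes, and all 7 had the larger difference in pre-CD8. The interaction calls of Ccr2, Il7r, Slc18a1 and Arpp21 were lost without any array except Id2-GFP+ CDP replicate 1, and those of Clec4b1, Ms4a6c and Cd72 without any 1 of the 8 arrays. Trub1 lost its additive call without any 1 of 6 arrays (all but replicate 2 of the CDP populations), and Plod2 without Id2-GFP- CDP replicate 1, Id2-GFP- pre-CD8 replicate 1 or Id2-GFP+ pre-CD8 replicate 2. Ccr2 also lost its additive call without any of those 6 arrays, and Clec4b1 lost it without Id2-GFP+ pre-CD8 replicate 1 (adjusted p of 0.142 and 0.0514 at most).

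**Figure D3:**
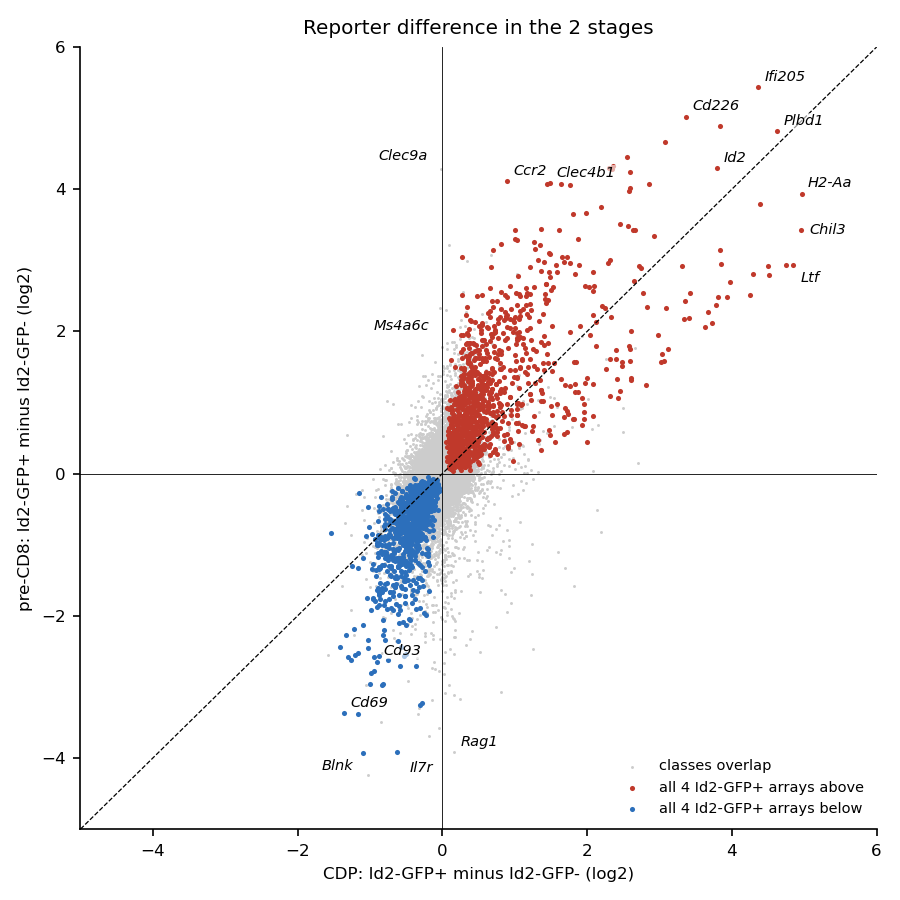
Difference between Id2-GFP+ and Id2-GFP- arrays in pre-CD8 (vertical axis, log2) against that in CDP (horizontal axis, log2) for every gene tested, with genes of no overlap in red (all Id2-GFP+ arrays above) and blue (all below) and the dashed line at equal differences. Of the red genes 827 of 1081 have the larger difference in pre-CD8, whereas Chil3 and Ltf lie on the CDP side of the line.

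Groups whose shares without overlap were close to that of all genes included 25 oxidative phosphorylation genes (0 above, 1 below, median -0.10), 25 interferon response genes (2 above, 1 below, median -0.28), 21 immediate early and heat shock genes (2 above, median 0.04) and 26 growth factor and cytokine receptors (1 above, 1 below, median 0.05). The receptors moved both ways, with 6 higher and 7 lower at an unadjusted p under 0.05 by limma. At adjusted p under 0.05, 2 receptors rose and 1 fell, or 4 and 5 with the brightness set as a block. The interferon response list differed by stage, with a median of 0.16 in CDP and -0.82 in pre-CD8. Of its 25 genes, 4 were higher and 7 lower at an unadjusted p under 0.05 by limma. The interaction contrast of limma gave 13 of them an unadjusted p under 0.05, against 1227 of all 19938 genes, and 0 passed at adjusted p under 0.05. Of 26 cathepsins and lysosomal enzymes 9 had all Id2-GFP+ arrays above but 3 rose, or 9 with the brightness set as a block. The 4 sex-linked genes had 0 without overlap. For 8 Gimap GTPases the median difference of -0.96 came from pre-CD8, at -2.19, against 0.24 in CDP, and 1 member had classes that did not overlap.

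**Figure D4:**
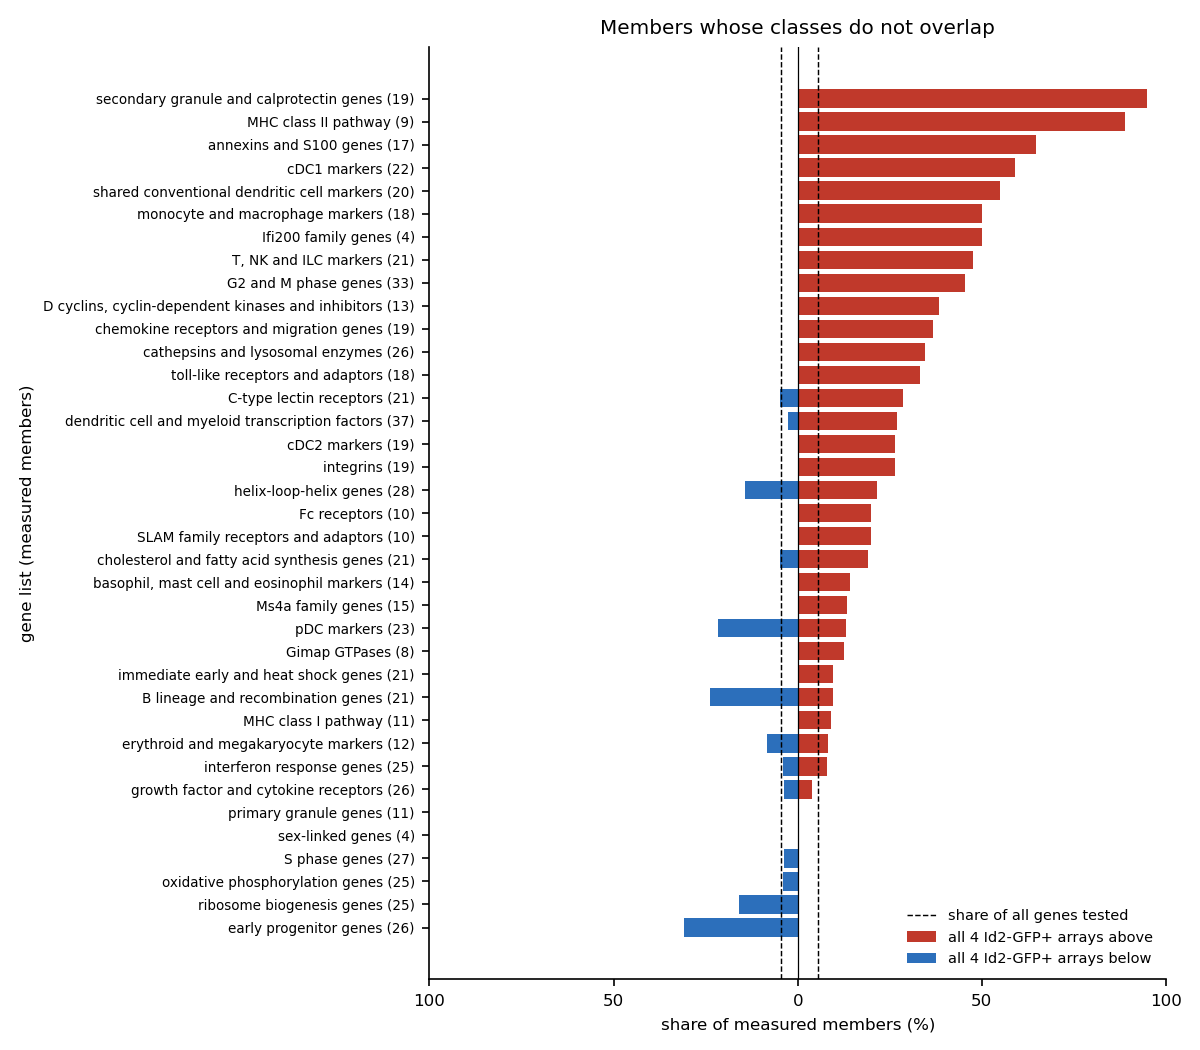
Share of the measured members of each gene list (vertical axis, number measured in brackets) with all 4 Id2-GFP+ arrays above (red, to the right) or below (blue, to the left) all 4 Id2-GFP- arrays (horizontal axis, percent), with dashed lines at the shares of all genes, 5.42% and 4.53%. Secondary granule and calprotectin genes (18 of 19) and MHC class II genes (8 of 9) reach the highest shares above, and early progenitor genes (8 of 26) the highest below.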

How the data were processed

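RNA of 4 progenitor populations, 2 arrays each, was measured on Affymetrix mouse gene arrays. The deposited table holds intensity values on a linear scale for 28853 probe sets, which the authors made with RMA in Affymetrix Expression Console, per the submitters' processing notes. RMA corrects background, normalises between arrays and summarises probes, which compresses low values. No version is stated there, and no detection call was used here. Here log2 of each deposited intensity was taken, with no further normalization. The array annotation gave 1 symbol to 21789 probe sets, several to 1621 and no entry to 5443. RefSeq placed 21698 of the 1-symbol probe sets and changed 0 symbols. The probe set with the highest mean was kept for each gene (999 genes had more than 1), leaving 19938 genes.

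The main test was limma 3.58.1 in R 4.3.3 on all 8 arrays, with reporter and stage as additive terms, an intensity trend, two-sided p-values and Benjamini-Hochberg adjustment (5 residual, 9.09 total degrees of freedom). A fit with a mean for each population gave within-stage and interaction values. Tables and figures used Python 3.11.15. Whether replicates are separate animals is not given in the labels, and the p-values then reflect only how far these arrays spread, possibly for technical reasons. The number of arrays limits precision. On simulated data of 19938 genes with spread independent between arrays, the additive reporter comparison recovered 68%, 96%, 100% and 100% of changes of log2 1, 2, 3 and 4 (50 each).

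The contrast, the genes described, the 37 gene lists and the tests were chosen with earlier results of these data known. The rule for named genes took Id2 and Zbtb46, then, among genes past the fit with no overlap, the 15 higher and 15 lower with the largest difference and the 10 each way with the widest gap, leaving out predicted genes, smell receptors, small RNAs and antigen receptor segments. It added up to 4 members of each list with no overlap and the smallest p, 13 fixed regulators and receptors, the 2 genes just inside and just outside the overlap rule in each direction, and up to 5 genes each of uneven and even stage differences. Other list members named in the text were chosen after their values were seen. Replicate numbers did not pair the samples. Differences between replicates 1 and 2 correlated at 0.690 and 0.713 within a reporter class and at -0.685 to -0.626 across classes, while brighter minus dimmer differences correlated at 0.626 to 0.713 in all 6 pairs of populations. Promoter sequences were from RefSeq. Protein sequences and the promoter of H2-Ab1 are not used here.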

Additional observations from a re-analysis of the deposited data

Results flagged for a closer look

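Of the genes named here or in the plot of stage differences, 11 had a reporter difference that differed between stages by the interaction contrast of limma at adjusted p under 0.05, given here as the pre-CD8 difference minus the CDP difference in log2 units. It was 4.31 for Clec9a, 3.22 for Ccr2, 2.60 for Clec4b1 and 1.87 for Ms4a6c, which in pre-CD8 were higher in the Id2-GFP+ cells. It was -3.28 for Il7r, -2.95 for Slc18a1 and -2.95 for Arpp21, which were lower there. It was -2.34 for Cd72, and -4.07 for Rag1, -3.13 for Rag2 and -3.41 for Socs2, whose classes overlapped. In all, 29 genes passed this contrast. Ccr2, Il7r, Slc18a1 and Arpp21 kept the call without Id2-GFP+ CDP replicate 1 and lost it without any other array, and Rag1 kept it only without Id2-GFP- pre-CD8 replicate 1. Clec9a, Clec4b1, Ms4a6c and Cd72 lost it without any of the 8 arrays. Rag1, Rag2 and Socs2 were picked after their values were seen, and of all 29 genes Rag2 and Socs2 kept it without each array in turn, at adjusted p of at most 0.0492 and 0.0497.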

How the results depend on the processing

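No gene past the fit in the values as deposited was called the other way under any alternative, but the sign turned for 3 named genes that did not pass it, Clec9a (-0.022 with CDP arrays only), Xcr1 (-0.011 without Id2-GFP+ pre-CD8 replicate 2, to 0.319 over the single arrays left out) and Kit (-0.040 to 0.421, below 0 without replicate 2 of any 1 population). The median difference of all genes stayed between -0.046 and 0.020. The counts of rising and falling genes were 438 and 213. They became 1293 and 1797 with the brightness set as a block, 764 and 497 with a mean for each population, 930 and 898 under quantile normalization, 505 and 355 after median centring (58.7% of calls were rises, against 67.3%), 595 and 389 with 11860 genes left after dim genes were dropped, 618 and 538 with pre-CD8 arrays only, and 121 and 0 with CDP arrays only (273 lower at an unadjusted p under 0.05 by limma). With the replicate block they were 259 and 37, and 6 genes passed the interaction, although the replicate numbers do not pair the samples. Without each array in turn they were 213 to 452 and 16 to 555. Genes with all Id2-GFP+ arrays above numbered 3795 with pre-CD8 arrays only and 2583 with CDP arrays only, and 1201 to 1550 without each array. Genes with all below numbered 1572 under quantile normalization, 4289 and 2396 by stage, and 973 to 1809 without each array. The highest were 1809 without Id2-GFP+ CDP replicate 2 and 1700 without Id2-GFP- CDP replicate 2. Fewer arrays ease the no-overlap rule by construction. The 29 interaction genes became 1492 with the brightness block, 202 under quantile normalization, 49 after median centring, 74 without dim genes, and 2 to 15 without each array: 15 without Id2-GFP+ CDP replicate 1, 5 without Id2-GFP- pre-CD8 replicate 1, 3 without Id2-GFP+ CDP replicate 2 and 2 without each of the other arrays. Apart from the settings that hold fewer genes or arrays, the cause was not tested. Of 105 named genes past the fit, 51 kept the call without each array in turn. RMA compresses dim values, which limits what can be seen for genes near background.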
